A study of Mus musculus with 5 samples.

Results

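The dorsal pancreas of mouse embryos at E10.5, in days of embryonic life, was compared with the gut tube from which it arises, sampled as foregut and as medial foregut at E8.5. These are 3 of the 5 RNA-seq libraries of a study of hepatic and pancreatic progenitors, with 1 library per tissue, and the other libraries are E10.5 ventral pancreas and liver. All embryos were of the strain C57BL/6J, and no genotype, transgene or treatment is given for any tissue. The number of embryos behind each library, any pooling and the way the tissue was isolated are not stated in the sources used here. Of 14053 loci in the deposited table, the 12375 with a gene name entered the comparison. A gene was followed where its value in dorsal pancreas stood on the same side of foregut and of medial foregut, which held for 10427 genes (84.3%), 6448 of them above both and 3979 below both.

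The pancreas forms from a dorsal and a ventral bud of the gut endoderm. Cells of the dorsal bud switch on Pdx1 and Ptf1a, and a few of them leave the epithelium early as endocrine cells, most of which make glucagon. At the earlier stage the foregut is an open or newly closed tube, lying against the forming heart, the notochord and the neural tube, and receives Nodal, FGF, retinoic acid and Hedgehog signals. Markers of those neighbouring tissues were therefore read alongside the endodermal genes. In bulk samples such as these, fewer cells of a type and less RNA per cell cannot be told apart.

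Values are FPKM, which count fragments per unit of transcript length and per library size, so that levels can be set against each other between genes as well as between libraries. Summed over all loci, FPKM came to 437581 in dorsal pancreas, against 456635 in foregut and 506529 in medial foregut. Depth in reads is unknown. Without replicates there was no test, no p-value and no replicate error, and every value below describes these 3 libraries. Differences are on the log2(FPKM + 1) scale, dorsal pancreas minus E8.5, which understates the change of low genes. The median over all genes was 0.089 against foregut and 0.11 against medial foregut. The only yardstick for a gap between similar tissues was the pair of E8.5 libraries themselves, which are not replicates. Their absolute difference had a median of 0.15, against 0.28 between dorsal pancreas and foregut and 0.31 between dorsal pancreas and medial foregut.

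A gene was called higher or lower when the difference reached 2 in size, that is 4 times in FPKM + 1, against each E8.5 library, and the higher library of each pair had at least 5 FPKM. By this rule 179 genes were higher in dorsal pancreas, 1.45% of those compared, and 146 were lower, 1.18%. Each list count below is to be read beside these shares of all genes. Between the E8.5 libraries themselves the same rule took 1 gene as higher and 5 as lower in medial foregut than in foregut. Set against medial foregut alone, 220 genes (1.78%) were higher and 230 (1.86%) lower in dorsal pancreas, so that the count of lower genes grew by more than 1.5 times without the foregut library. Against foregut alone, 212 (1.71%) were higher and 174 (1.41%) lower. With a pseudocount of 5 FPKM in place of 1, 57 genes were higher and 77 lower, which turns the balance. Just inside the limit stood Qsox1 with a smaller difference of 2.01 and Hhex with -2.0, and just outside stood Slc40a1 with 1.99 and Csrp2 with -1.98. The lower genes reached further: 44 of them, against 19 of the higher genes, had a difference of at least 4 in size against both libraries. Among genes described below, the deposited loci of Sox2, Sox9, Foxa1, Pax6, Cldn3, Krt19, Foxf1a, Foxh1 and Cartpt span more than 5 times the annotated gene, so other transcripts within them cannot be told apart from the gene, and so does that of Cldn4.

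**Figure D1:**
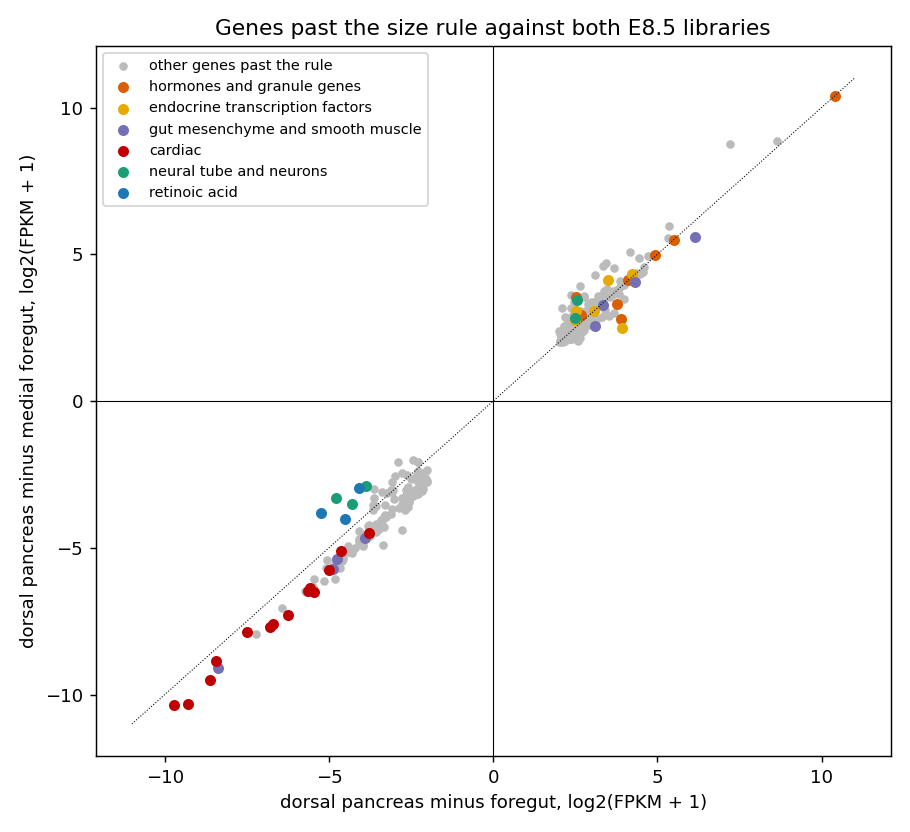
Each point is one of the 325 genes past the size rule, placed by its difference on the log2(FPKM + 1) scale between dorsal pancreas and foregut (x axis) and between dorsal pancreas and medial foregut (y axis), with 6 gene lists in colour and the dotted line marking equal differences. The 14 cardiac genes run to the lower left corner, Gcg stands farthest to the upper right, and the 3 lower retinoic acid genes lie above the dotted line, since foregut held more of them than medial foregut.

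The labels were checked against markers of each tissue. All 7 dorsal pancreas markers were found, and their summed level was 1560 FPKM in dorsal pancreas, against 24.9 in foregut and 24.8 in medial foregut. Gcg alone held 1349 FPKM of the dorsal sum, and 5 of the 7 markers were higher by the rule. The 8 markers of foregut endoderm summed to 433 FPKM in dorsal pancreas, 260.1 in foregut and 269.9 in medial foregut, with 2 of them lower by the rule. Markers of other tissues were present in each library. The 3 cardiac markers found summed to 9.69 FPKM in dorsal pancreas, against 3411 in foregut and 6021 in medial foregut. The 6 mesenchymal markers summed to 231 FPKM in dorsal pancreas, against 30.7 in foregut and 54.2 in medial foregut, and 4 of them were higher. The wider list had 23 mesenchymal and smooth muscle genes, some shared with the heart. Its sum went the other way, at 546 FPKM in dorsal pancreas, against 1119.6 in foregut and 1692 in medial foregut. Much of that gap was 1 contractile gene, Acta2, at 0.923 FPKM in dorsal pancreas, against 635 in foregut and 1042 in medial foregut. By number the list was split, with 10 members above both E8.5 libraries and 12 below both. The 5 neural markers summed to 15.9 FPKM in dorsal pancreas, against 61.3 in foregut and 27.3 in medial foregut. Only 1 of them was lower by the rule, Sox2, which also marks future oesophagus and stomach. Sox2 alone held 0.464 FPKM of the dorsal sum, 38.9 of the foregut sum and 13.4 of the medial foregut sum. Of the 3 liver markers 1 was higher, Trf, at 27.2 FPKM in dorsal pancreas, against 2.38 in foregut and 1.73 in medial foregut, and Apoa1 was below both E8.5 libraries. The part of other tissues in the differences given below was not tested.

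Hormone genes and genes of the secretory granule had the largest share of members on the higher side among the 42 gene lists. Of 10 measured members, those averaging at least 1 FPKM across the 3 libraries, 8 were higher in dorsal pancreas and 0 were lower, out of 22 listed and 10 found by name, against 1.45% of all genes higher. In every list that average includes dorsal pancreas, so a gene near 0 at E8.5 can count as measured through dorsal pancreas alone. List shares and medians thus lean on this choice. The median difference was 3.83 against foregut and 3.43 against medial foregut. Gcg, which encodes proglucagon (chromosome 2, 62312638 to 62321998, reverse strand, mm9), stood at 1349 FPKM in dorsal pancreas and was listed at 0 in both E8.5 libraries. It ranked at the top of all genes by the smaller difference. Ins1, which encodes an insulin, stood at 16.4 FPKM in dorsal pancreas and was likewise listed at 0 in foregut and in medial foregut. Its locus spans under 1000 bp, and Ins2, a close paralog, was not analysed here, so reads shared by both genes cannot be assigned. The sequences before the transcription start of these hormone genes are shown because they were at 0 in both E8.5 libraries and present in dorsal pancreas. They are the 250 bases before the start, from RefSeq on build GRCm38.p6, with capitals marking every CANNTG, the letters of an E-box that basic helix-loop-helix factors such as Neurod1 can bind, and every TAAT on either strand, the core bound by many homeodomain factors:
Gcg, chr2:62483654-62483903, reverse strand: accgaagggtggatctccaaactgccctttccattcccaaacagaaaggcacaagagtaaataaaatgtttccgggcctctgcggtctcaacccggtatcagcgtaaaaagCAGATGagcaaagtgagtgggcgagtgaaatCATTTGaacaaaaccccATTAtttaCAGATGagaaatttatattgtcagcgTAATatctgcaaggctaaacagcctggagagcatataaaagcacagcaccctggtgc
Ins1, chr19:52264047-52264296, forward strand: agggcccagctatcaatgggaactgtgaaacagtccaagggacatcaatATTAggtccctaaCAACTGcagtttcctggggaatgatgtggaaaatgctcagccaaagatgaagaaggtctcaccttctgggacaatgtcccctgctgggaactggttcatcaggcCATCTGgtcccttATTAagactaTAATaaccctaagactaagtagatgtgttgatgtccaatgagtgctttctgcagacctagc
The Gcg window held 3 CANNTG and 2 TAAT matches, and the Ins1 window 2 CANNTG and 3 TAAT matches, with no overlap between the motifs. Both are common, since 66% of all promoter windows of this length held CANNTG and 55.3% held TAAT.

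Pyy, the gene of the gut hormone peptide YY, was present before the bud formed. It stood at 722 FPKM in dorsal pancreas, against 47.6 in foregut and 103 in medial foregut, a difference of 3.90 against foregut and 2.80 against medial foregut. The levels in the E8.5 libraries were thus far from 0, unlike those of Gcg and Ins1. Granule genes were likewise highest in dorsal pancreas, whichever E8.5 library held more. Chgb, a granin that packs hormones, stood at 56.0 FPKM in dorsal pancreas, against 0.252 in foregut and 0.260 in medial foregut. Pcsk2, the protease that cuts proglucagon and proinsulin, stood at 33.6 FPKM in dorsal pancreas, against 0.145 in foregut and 0.0903 in medial foregut. For Pcsk1n, an inhibitor of a related protease, the values were 23.2 FPKM in dorsal pancreas, against 0.775 in foregut and 1.47 in medial foregut. In each of these, dorsal pancreas was the only one of the 3 libraries compared that was above 2 FPKM. Ventral pancreas held 23.6 FPKM of Chgb, 5.94 of Pcsk2 and 6.38 of Pcsk1n, and liver held 3.74 FPKM of Pcsk1n. Cpe, the carboxypeptidase that trims the cut hormones, was already present at E8.5, with 92.5 FPKM in dorsal pancreas, against 13.6 in foregut and 11.2 in medial foregut. Scg3, another granin, stood at 20.3 FPKM in dorsal pancreas, against 2.67 in foregut and 0.806 in medial foregut. The 2 members not past the rule were Scg5, with 7.26 FPKM in dorsal pancreas, against 3.31 in foregut and 1.76 in medial foregut, and Ttr, with 5.67 FPKM in dorsal pancreas, against 4.59 in foregut and 3.98 in medial foregut, whose locus lies opposite in strand to the annotated gene. Among hormone genes outside the lists, which were picked after their values were seen, Sct (secretin) stood at 23.8 FPKM in dorsal pancreas, against 0.569 in foregut and 1.21 in medial foregut, at a locus under 1000 bp, and Cartpt, a neuropeptide gene at a locus far longer than the gene, stood at 12.7 FPKM in dorsal pancreas and was listed at 0 in both E8.5 libraries.

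Transcription factors that drive endocrine differentiation were higher in part. Of 16 measured members 6 were higher and 0 lower, against 1.45% and 1.18% of all genes. The median difference was 2.27 against foregut and 2.28 against medial foregut. The higher count was 3 with a pseudocount of 5 FPKM and 10 with libraries rescaled to the same total. Here and below, that rescaling raised all values while the pseudocount of 1 FPKM and the 5 FPKM limit stayed, so it also eased the rule. Neurog3, which starts the endocrine programme, stood at 7.86 FPKM in dorsal pancreas, against 0.0623 in foregut and 0.0449 in medial foregut. Its target Neurod1 stood at 19.3 FPKM in dorsal pancreas, against 0.0856 in foregut and a listed 0 in medial foregut. Insm1, a zinc finger factor downstream of both, stood at 18.9 FPKM in dorsal pancreas, against 0.766 in foregut and 0.138 in medial foregut. All 3 genes were near 0 in both E8.5 libraries. Myt1, another factor of early endocrine cells, had 6.19 FPKM in dorsal pancreas, against 0.280 in foregut and 0.0649 in medial foregut. Pou3f4, a POU factor of alpha cells, had 9.87 FPKM in dorsal pancreas, against 0.873 in foregut and 0.302 in medial foregut. Isl1 was the most abundant, at 104 FPKM in dorsal pancreas, against 5.88 in foregut and 17.8 in medial foregut. The E8.5 libraries differed in it, medial foregut holding more than foregut, and which cells held it was not tested. Pax4 (3.80 FPKM in dorsal pancreas, 0.0689 in foregut and a listed 0 in medial foregut), Fev (4.99 FPKM in dorsal pancreas, 0.312 in foregut and 0.220 in medial foregut) and St18 (4.60 FPKM in dorsal pancreas, a listed 0 in foregut and a listed 0 in medial foregut) had the same order but stayed below the 5 FPKM that the rule asks for. Pax6, which also patterns the neural tube, did not differ past the rule and stood at 26.2 FPKM in dorsal pancreas, against 42.6 in foregut and 20.0 in medial foregut, so that dorsal pancreas lay between the E8.5 libraries. Lmx1a was the one member below both, at 0.548 FPKM in dorsal pancreas, against 3.53 in foregut and 1.32 in medial foregut.

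Genes that couple glucose to hormone release were also present in the bud. In this list 7 of 14 measured members were higher and 0 lower, and the median difference was 2.50 against foregut and 2.28 against medial foregut, and a pseudocount of 5 FPKM left 4 higher. The ATP-sensitive potassium channel of beta cells is made of the products of Kcnj11 and Abcc8, which neighbour each other in the genome. Abcc8 stood at 49.3 FPKM in dorsal pancreas, against 1.28 in foregut and 1.52 in medial foregut. Kcnj11 stood at 27.7 FPKM in dorsal pancreas, against 1.04 in foregut and 1.27 in medial foregut. Kcnk16, a further potassium channel of the islet, stood at 72.1 FPKM in dorsal pancreas, against 4.71 in foregut and 2.15 in medial foregut. Each of these had under 5 FPKM in both E8.5 libraries. The glucose transporter gene Slc2a2 reached 4.41 FPKM in dorsal pancreas, against 0.0538 in foregut and 0.00791 in medial foregut, short of the 5 FPKM limit. Ptprn2 and Syt13, whose proteins sit on secretory vesicles, were higher too, with 55.3 and 24.2 FPKM in dorsal pancreas. The vesicle fusion genes Snap25 and Stx1a did not pass the rule, and Cacna1d, a calcium channel gene, lay on the other side, with 2.49 FPKM in dorsal pancreas, against 7.98 in foregut and 12.1 in medial foregut.

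The factors that define pancreatic progenitors split between genes nearly absent at E8.5 and genes that the foregut endoderm already had. Of 20 measured members, 6 were higher, 1 lower and the rest neither, against 1.45% higher and 1.18% lower among all genes. The median difference was 1.10 against foregut and 2.14 against medial foregut. Without the foregut library 11 were higher and 2 lower, and the lower call ended with a pseudocount of 5 FPKM. Pdx1 (chromosome 5, 148081169 to 148092911, forward strand, mm9), the homeobox gene without which no pancreas grows, stood at 40.9 FPKM in dorsal pancreas, against 0.945 in foregut and 0.444 in medial foregut, a difference of 4.43 against foregut and 4.86 against medial foregut. Ptf1a, the bHLH partner gene needed for the pancreatic fate, stood at 8.32 FPKM in dorsal pancreas, against 0.0443 in foregut and a listed 0 in medial foregut. Mnx1, which the dorsal bud needs to form, stood at 19.1 FPKM in dorsal pancreas, against 0.921 in foregut and 0.577 in medial foregut. These 3 had under 1 FPKM in both E8.5 libraries. Nkx2-2 was found only in a locus joined with its antisense gene, which held 42.0 FPKM in dorsal pancreas, against 1.38 in foregut and 0.274 in medial foregut, and how much of it is Nkx2-2 cannot be told without strand. Nr5a2, a nuclear receptor of the exocrine pancreas, stood at 17.1 FPKM in dorsal pancreas, against 1.65 in foregut and 0.531 in medial foregut.

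Sox9, which keeps progenitors multipotent, was already present at E8.5 and stood at 25.3 FPKM in dorsal pancreas, against 9.17 in foregut and 4.21 in medial foregut. Nkx6-1 stood at 13.1 FPKM in dorsal pancreas, against 7.98 in foregut and 1.78 in medial foregut, and here the foregut library held more than medial foregut. Neither of these passed the rule against foregut. Foxa2, a broad endoderm factor, stood at 33.1 FPKM in dorsal pancreas, against 18.2 in foregut and 12.4 in medial foregut. It had somewhat more in the bud and did not pass the rule. Other shared factors had less in the bud. Hhex, which the ventral bud and the liver need, was the lower member, at 10.6 FPKM in dorsal pancreas, against 45.7 in foregut and 58.5 in medial foregut. Gata4 stood at 13.5 FPKM in dorsal pancreas, against 46.6 in foregut and 77.95 in medial foregut. Gata6 stood at 11.2 FPKM in dorsal pancreas, against 25.7 in foregut and 41.1 in medial foregut. Foxa1 stood at 6.397 FPKM in dorsal pancreas, against 20.2 in foregut and 18.6 in medial foregut. Of these 4 only Hhex reached the limit, and Gata4 and Gata6 are also genes of the heart.

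Digestive enzyme genes were mostly not measured, with 5 of 17 listed members above the minimum, of which 2 were higher and 1 lower (1 higher with a pseudocount of 5 FPKM). Cpa1, a carboxypeptidase gene that marks multipotent tip cells at this stage, stood at 30.7 FPKM in dorsal pancreas, against 0.328 in foregut and 0.493 in medial foregut. Cela1, an elastase gene, stood at 6.60 FPKM in dorsal pancreas, against 0.208 in foregut and 0.169 in medial foregut. The protease inhibitor gene Spink3, an acinar product later in life, went the other way, at 0.982 FPKM in dorsal pancreas, against 68.8 in foregut and 137 in medial foregut. Its 2 E8.5 values were each above the dorsal value by more than 60 FPKM.

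**Figure D2:**
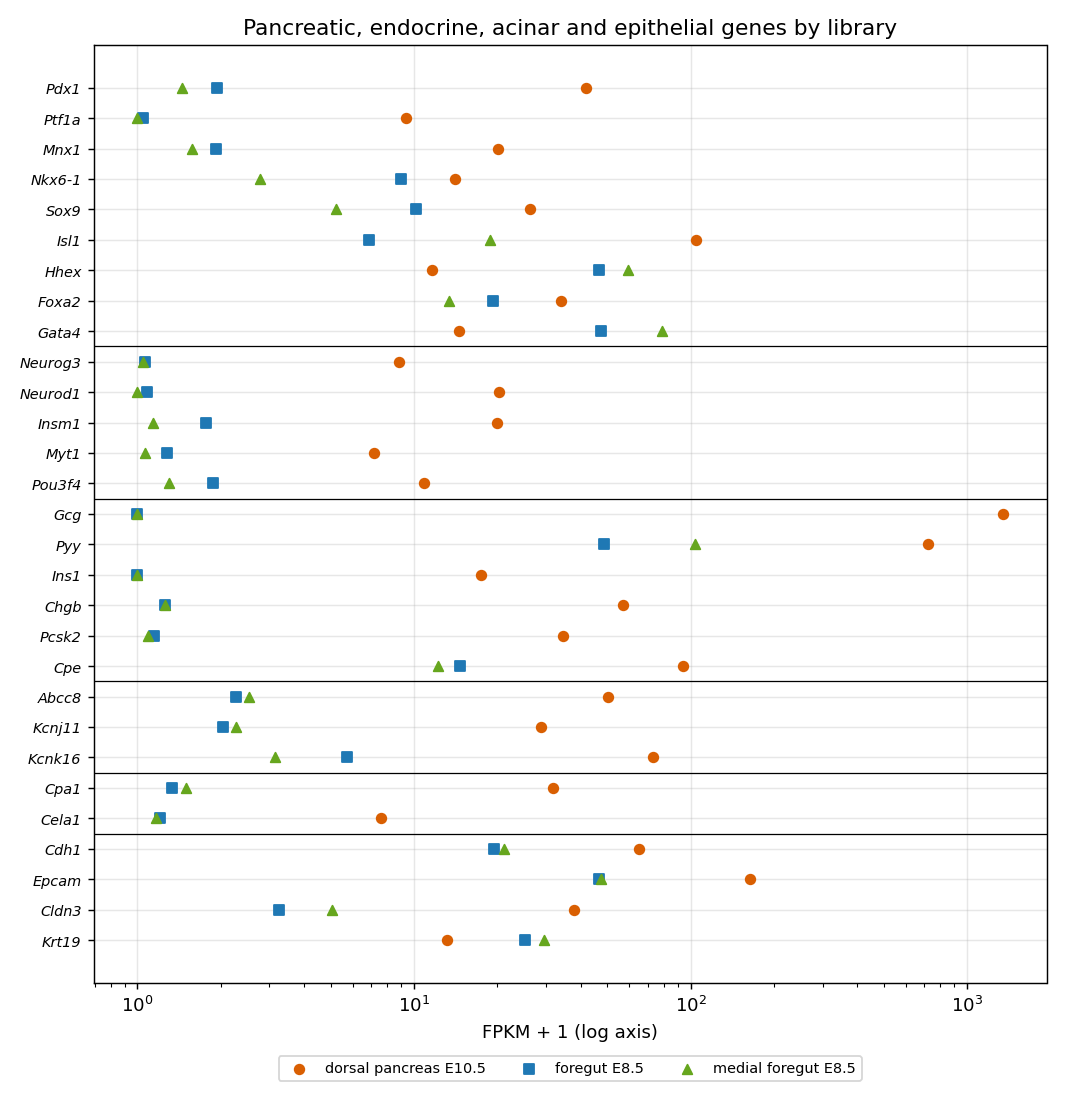
FPKM + 1 on a log axis for 29 genes in dorsal pancreas (circles), foregut (squares) and medial foregut (triangles), with lines between progenitor factors, endocrine factors, hormone and granule genes, channel genes, enzyme genes and epithelial genes. Gcg and Ins1 sit at 1, that is 0 FPKM, in both E8.5 libraries, and Hhex, Gata4 and Krt19 are the genes whose circle lies left of both other symbols.

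Several of the 20 highest genes belong to none of these lists. Slc38a5, the gene of an amino acid transporter that carries glutamine, stood at 886 FPKM in dorsal pancreas, against 1.23 in foregut and 0.910 in medial foregut, second to Gcg by the smaller difference at 8.64. Nepn, which encodes a secreted leucine-rich repeat protein, stood at 602 FPKM in dorsal pancreas, against 3.08 in foregut and 0.387 in medial foregut. Spp1, encoding osteopontin, stood at 68.2 FPKM in dorsal pancreas, against 0.732 in foregut and 0.484 in medial foregut. These 3 were at most at 4 FPKM in either E8.5 library. Aldh1b1, a mitochondrial aldehyde dehydrogenase of pancreatic progenitors, had 35.3 FPKM in dorsal pancreas, against 0.504 in foregut and 0.548 in medial foregut. Rhov, a small GTPase gene, had 20.2 FPKM in dorsal pancreas, against 0.0408 in foregut and 0.0365 in medial foregut. Tmem27, whose product collectrin lies at the surface of beta cells, stood at 76.2 FPKM in dorsal pancreas, against 3.58 in foregut and 3.50 in medial foregut. Of the liver-type secreted list, 4 of 14 measured members were higher and 0 lower, with medians of 0.22 against foregut and 0.35 against medial foregut. With libraries rescaled to the same total 1 was lower. They were Ambp (188 FPKM in dorsal pancreas, 3.61 in foregut and 2.01 in medial foregut), Vtn (108 FPKM in dorsal pancreas, 18.5 in foregut and 9.53 in medial foregut), Trf (27.2 FPKM in dorsal pancreas, 2.38 in foregut and 1.73 in medial foregut) and Serpina6 (6.39 FPKM in dorsal pancreas, 0.146 in foregut and 0.0910 in medial foregut). Apob and Apoa1, also of liver and yolk sac, lay below both E8.5 libraries without passing the rule, with 1.97 FPKM in dorsal pancreas, 8.56 in foregut and 6.91 in medial foregut for Apoa1. Gc, the vitamin D binding protein gene, is not on that list and stood at 38.3 FPKM in dorsal pancreas, against 0.512 in foregut and 0.278 in medial foregut.

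Epithelial adhesion genes were mostly above both E8.5 libraries, but few passed the size rule. Of 26 measured members 2 were higher and 0 lower, 21 lay above both libraries, and the median difference was 1.25 against foregut and 1.08 against medial foregut. Of the higher genes 1 kept its call with a pseudocount of 5 FPKM, and 1 gene was lower without the foregut library. Cdh1, the E-cadherin gene, had 64.3 FPKM in dorsal pancreas, against 18.5 in foregut and 20.2 in medial foregut. Epcam, an epithelial surface gene, stood at 163 FPKM in dorsal pancreas, against 45.6 in foregut and 46.5 in medial foregut. Both genes stayed under the 4 times of the rule against each E8.5 library. The tight junction gene Cldn3 passed, at 36.9 FPKM in dorsal pancreas, against 2.26 in foregut and 4.04 in medial foregut, but Cldn4 shares its interval on the opposite strand, and without strand marking their reads cannot be separated. Marveld3, another junction gene, passed at 6.49 FPKM in dorsal pancreas, against 0.381 in foregut and 0.579 in medial foregut. Keratins of simple epithelium were not alike. Krt7 stood at 40.2 FPKM in dorsal pancreas, against 10.8 in foregut and 10.1 in medial foregut, whereas Krt8 stood at 137 FPKM in dorsal pancreas, against 263 in foregut and 389 in medial foregut. Krt18 stood at 101 FPKM in dorsal pancreas, against 270.3 in foregut and 424 in medial foregut. Krt19 stood at 12.2 FPKM in dorsal pancreas, against 24.1 in foregut and 28.5 in medial foregut. Krt8, Krt18 and Krt19 were thus below both E8.5 libraries and Krt7 above both, and none of the 4 passed the rule.

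Hox genes, which give cells their position along the body axis, were above the E8.5 libraries where they passed the rule. Of 5 measured Hox genes, out of 29 listed and 7 found, 2 were higher and 0 lower, with medians of 1.28 against foregut and 2.72 against medial foregut. A single higher call was left with a pseudocount of 5 FPKM, and likewise when short loci were left out. Hoxb8 stood at 30.9 FPKM in dorsal pancreas, against 2.16 in foregut and 0.299 in medial foregut. Hoxa7 stood at 14.1 FPKM in dorsal pancreas, against 0.0330 in foregut and 0.0213 in medial foregut, at a locus under 1000 bp that covers 5.77% of the annotated span. It counted as measured only through dorsal pancreas. Hoxc4 stood at 16.4 FPKM in dorsal pancreas, against 6.17 in foregut and 1.65 in medial foregut, short of the rule against foregut. Hoxb1 stood at 14.9 FPKM in dorsal pancreas, against 9.03 in foregut and 8.34 in medial foregut. Hoxb3 stood at 24.9 FPKM in dorsal pancreas, against 22.8 in foregut and 23.0 in medial foregut, at a locus placed opposite in strand to the gene. The 2 genes past the rule carry higher numbers within their clusters than Hoxb1 and Hoxb3, and a joined locus of Hoxb5 and Hoxb7, outside the list, held 25.3 FPKM in dorsal pancreas, against 4.08 in foregut and 1.16 in medial foregut.

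Factors of the anterior foregut went the other way. In the list of foregut, stomach and intestine factors 1 of 17 was higher and 4 were lower, against 1.45% and 1.18% of all genes. Its medians were -1.07 against foregut and -1.91 against medial foregut. Without the foregut library 2 were higher and 7 lower, as they were with libraries rescaled to the same total; without medial foregut 2 were higher, and a pseudocount of 5 FPKM left 1 lower. Sox2, which marks the future oesophagus and stomach and also the neural tube, stood at 0.464 FPKM in dorsal pancreas, against 38.9 in foregut and 13.4 in medial foregut. Tbx1, a pharyngeal gene, stood at 0.865 FPKM in dorsal pancreas, against 6.89 in foregut and 8.96 in medial foregut. Irx5 stood at 0.191 FPKM in dorsal pancreas, against 8.96 in foregut and 8.62 in medial foregut. In all 3 the dorsal pancreas was under 1 FPKM. Gata5, shared by endoderm and heart, was lower too, at 1.76 FPKM in dorsal pancreas, against 31.8 in foregut and 60.1 in medial foregut. The higher member was Barx1, at 89.3 FPKM in dorsal pancreas, against 0.285 in foregut and 0.855 in medial foregut, a gene of the stomach mesenchyme.

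Mesenchymal genes stood on both sides. Of 23 measured members 4 were higher and 4 lower, and the median difference was -0.36 against foregut and -0.31 against medial foregut. A pseudocount of 5 FPKM left 2 higher. On the higher side were Barx1, given above, Nkx3-2, Foxf1a and Col3a1. Nkx3-2, which marks the mesenchyme of spleen and dorsal pancreas, stood at 9.57 FPKM in dorsal pancreas, against 0.0436 in foregut and 0.0826 in medial foregut. Col3a1, a fibrillar collagen gene, stood at 62.3 FPKM in dorsal pancreas, against 2.18 in foregut and 2.78 in medial foregut. Foxf1a, a Hedgehog-responsive gut mesenchyme factor, stood at 18.8 FPKM in dorsal pancreas, against 1.29 in foregut and 2.40 in medial foregut, at a locus placed opposite in strand to the annotated gene. In these 4 genes the bud stood above both E8.5 libraries, but Pdgfra, the receptor gene of general mesenchyme, had 35.0 FPKM in dorsal pancreas, against 24.2 in foregut and 41.7 in medial foregut, and Vim, the mesenchymal filament gene, had 204 FPKM in dorsal pancreas, against 167 in foregut and 180.1 in medial foregut. On the lower side stood the contractile genes Acta2, Tagln and Cnn1, which early heart muscle also uses, and Tbx5, a heart and forelimb factor. Acta2 stood at 0.923 FPKM in dorsal pancreas, against 635 in foregut and 1042 in medial foregut.

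Among matrix genes 4 of 40 were higher and 1 lower, against 1.45% higher and 1.18% lower among all genes. The medians were -0.13 against foregut and -0.22 against medial foregut. Without the foregut library 2 were lower. Besides Nepn, Spp1 and Col3a1, Tnc, encoding the matrix glycoprotein tenascin C, stood at 79.7 FPKM in dorsal pancreas, against 5.32 in foregut and 5.42 in medial foregut. The lower member was Nid2, a basement membrane linker gene, at 4.59 FPKM in dorsal pancreas, against 77.6 in foregut and 105 in medial foregut. Col8a1, outside the list, stood at 16.7 FPKM in dorsal pancreas, against 0.116 in foregut and 0.142 in medial foregut, at a locus under 1000 bp that covers 0.338% of the annotated span.

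Heart muscle genes dominated the lower side. Of 16 measured cardiac genes 14 were lower in dorsal pancreas and 0 higher, all 16 lay below both E8.5 libraries, and the median difference was -5.93 against foregut and -6.89 against medial foregut. Their summed level was 28.6 FPKM in dorsal pancreas, against 5614 in foregut and 9691 in medial foregut. In dorsal pancreas 11 members were under 1 FPKM, and Myl2 was listed at 0 there. Actc1, encoding cardiac actin (chromosome 2, 113873014 to 113878836, reverse strand, mm9), stood at 0.752 FPKM in dorsal pancreas, against 1487 in foregut and 2297 in medial foregut. Tnnt2, encoding cardiac troponin T, stood at 0.388 FPKM in dorsal pancreas, against 875 in foregut and 1764 in medial foregut. Myh6, a cardiac myosin heavy chain gene, stood at 0.0391 FPKM in dorsal pancreas, against 188 in foregut and 241 in medial foregut. Every one of the 20 lowest genes except Spink3 was a muscle or heart gene by textbook role or on a cardiac or smooth muscle list, among them Ankrd1, Mybpc3, Unc45b and Nebl. The 2 cardiac members not past the rule were Nkx2-5, at 4.77 FPKM in dorsal pancreas, against 10.3 in foregut and 20.7 in medial foregut, and Hand2, at 2.84 FPKM in dorsal pancreas, against 9.58 in foregut and 22.0 in medial foregut, at a locus placed opposite in strand to the annotated gene. Nkx2-5 is also active in mesenchyme near the dorsal pancreas. The level of cardiac RNA thus differed by library in the order dorsal pancreas, foregut, medial foregut, and its part in the other differences was not tested.

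The promoter windows of 3 of these muscle genes are shown because they hold a CArG box, the site of serum response factor, which drives muscle actin genes. The 250 bases before the start are again from RefSeq on GRCm38.p6, and capitals mark the CArG box, searched on both strands:
Actc1, chr2:114052876-114053125, reverse strand: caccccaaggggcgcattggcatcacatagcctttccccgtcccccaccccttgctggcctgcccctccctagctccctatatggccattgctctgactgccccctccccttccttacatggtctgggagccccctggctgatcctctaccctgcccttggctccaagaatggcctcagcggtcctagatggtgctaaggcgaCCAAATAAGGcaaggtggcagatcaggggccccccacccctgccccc
Myl7, chr11:5898783-5899032, reverse strand: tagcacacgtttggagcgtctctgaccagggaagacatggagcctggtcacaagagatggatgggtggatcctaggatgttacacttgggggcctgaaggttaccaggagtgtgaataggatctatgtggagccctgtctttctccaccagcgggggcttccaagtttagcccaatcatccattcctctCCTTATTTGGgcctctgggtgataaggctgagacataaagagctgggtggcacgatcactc
Acta1, chr8:123894776-123895025, reverse strand: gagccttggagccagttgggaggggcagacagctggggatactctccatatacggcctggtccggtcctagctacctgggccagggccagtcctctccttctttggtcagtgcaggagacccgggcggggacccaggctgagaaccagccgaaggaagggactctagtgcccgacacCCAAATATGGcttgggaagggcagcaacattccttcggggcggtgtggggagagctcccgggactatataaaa
The box began 47 bases before the start in Actc1, 61 in Myl7 and 73 in Acta1. Of the 14 lower cardiac genes, all of which had a promoter sequence, 3 held the box (21.4%), namely Actc1, Myl3 and Myl7, against 1.4% of all promoter windows. Acta1, the skeletal actin gene, is outside that list and was chosen after its sequence was seen; it stood at 1.08 FPKM in dorsal pancreas, against 48.9 in foregut and 85.6 in medial foregut. Of all 146 lower genes, promoters were matched by symbol for only 97, of which 11 held the box (11.3%). Among the 8254 named loci with a matched promoter the share was 1.22%, and among the 130 higher genes with one it was 1.54%. These shares were not tested, and the unmatched genes were not searched.

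The lower genes fell into groups by how they differed between the E8.5 libraries. Of the 146, 124 had more in medial foregut than in foregut and 22 had less. In 89 of them medial foregut held at least 1.5 times the foregut value, against 4.46% of all genes at 5 FPKM or more in an E8.5 library. All 16 measured cardiac genes had more in medial foregut. Among the 22 genes with less in medial foregut were the neural genes Sox2, Sox1 and Zic2, the retinoic acid genes Crabp1, Crabp2 and Aldh1a2, the ligand genes Shh and Fgf15, the guidance receptor gene Robo2 and the glucose transporter gene Slc2a1. None of the 14 lower cardiac genes was in that group.

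**Figure D3:**
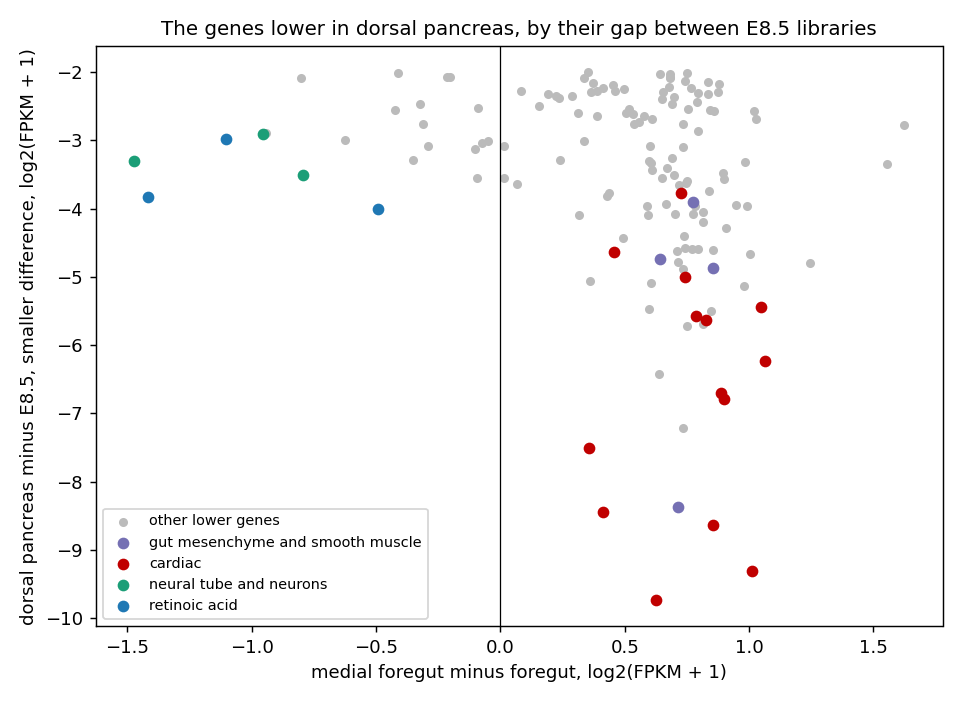
The 146 genes lower in dorsal pancreas, placed by the difference between medial foregut and foregut (x axis) and by the smaller of the differences between dorsal pancreas and the E8.5 libraries (y axis), both on the log2(FPKM + 1) scale and sharing the E8.5 libraries. The cardiac genes all lie right of 0, and the neural and retinoic acid genes all lie left of it.

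Markers of other neighbouring cells were mostly below the E8.5 libraries. In the neural tube list 3 of 15 were lower and 2 higher, with medians of -2.37 against foregut and -1.62 against medial foregut. Without the medial foregut library 8 were lower, with libraries rescaled to the same total 6, and with a pseudocount of 5 FPKM 0 were lower and 0 higher. Zic2 stood at 0.0128 FPKM in dorsal pancreas, against 19.03 in foregut and 10.6 in medial foregut. Sox1 stood at 0.0754 FPKM in dorsal pancreas, against 14.6 in foregut and 7.04 in medial foregut. Olig2, Msx3 and Otx2 were listed at 0 in dorsal pancreas. The higher members were Nefl and Map2 (named Mtap2 in the table). Nefl, a neurofilament gene, stood at 32.8 FPKM in dorsal pancreas, against 4.96 in foregut and 3.75 in medial foregut. Map2 stood at 28.2 FPKM in dorsal pancreas, against 4.03 in foregut and 1.72 in medial foregut. Which cells held these transcripts was not tested. Of 11 neural crest and glial genes none was lower and 1 was higher, Ngfr, a neurotrophin receptor gene, at 15.8 FPKM in dorsal pancreas, against 2.94 in foregut and 0.847 in medial foregut. That call ended under median-ratio rescaling and with a pseudocount of 5 FPKM, and 2 members were lower without medial foregut. Sox10, the glial factor, stood at 0.497 FPKM in dorsal pancreas, against 8.10 in foregut and 0.560 in medial foregut.

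Endothelial genes had 0 of 15 higher and 0 lower, with 12 below both libraries and medians of -0.85 against foregut and -1.12 against medial foregut. Rescaling libraries to the same total made 1 lower. Their summed level was 77.7 FPKM in dorsal pancreas, against 139 in foregut and 180.4 in medial foregut. Kdr, a receptor for vascular growth factor, stood at 9.62 FPKM in dorsal pancreas, against 21.6 in foregut and 28.1 in medial foregut. Cdh5, the endothelial cadherin gene, stood at 10.7 FPKM in dorsal pancreas, against 20.2 in foregut and 27.8 in medial foregut. Of the blood lists, 4 of 18 erythroid genes were measured, of which the embryonic globin gene Hbb-y was higher, at 24.4 FPKM in dorsal pancreas, against 1.73 in foregut and 1.495 in medial foregut, and Car2, a carbonic anhydrase gene, lower, at 1.22 FPKM in dorsal pancreas, against 25.2 in foregut and 25.4 in medial foregut. No leukocyte gene reached the measuring minimum. Of 8 hepatic transcription factor genes Hhex was lower and none higher, and of 2 notochord genes Shh was lower. Without foregut 2 hepatic factors were higher and 2 lower. The somite list had 4 measured members, of which Foxc2 was lower, at 0.345 FPKM in dorsal pancreas, against 5.52 in foregut and 7.53 in medial foregut. It had 2 lower members without medial foregut. The calls of Hhex, Shh and Foxc2 each ended with a pseudocount of 5 FPKM.

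Retinoic acid genes past the rule were all lower. Of 13 measured members 3 were lower and 0 higher, against 1.18% lower and 1.45% higher among all genes. Medians were -0.28 against foregut and -0.52 against medial foregut. Without medial foregut 1 member was higher. Crabp1 and Crabp2 encode proteins that bind retinoic acid in the cytoplasm. Crabp1 stood at 19.3 FPKM in dorsal pancreas, against 457 in foregut and 325 in medial foregut. Crabp2 stood at 8.52 FPKM in dorsal pancreas, against 359.7 in foregut and 134 in medial foregut. Aldh1a2, the main enzyme that makes retinoic acid in the embryo, stood at 1.16 FPKM in dorsal pancreas, against 35.4 in foregut and 15.96 in medial foregut. Dorsal pancreas was the lowest library of the 3 in each, and foregut the highest. Other members had more in the bud without passing the rule. Rxrg, a receptor gene, stood at 9.88 FPKM in dorsal pancreas, against 1.07 in foregut and 1.75 in medial foregut. Stra6, which takes up retinol, stood at 22.7 FPKM in dorsal pancreas, against 7.21 in foregut and 8.48 in medial foregut.

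Hedgehog signalling keeps pancreatic genes off in the gut tube, and its ligand gene was low in the bud. Shh stood at 0.417 FPKM in dorsal pancreas, against 10.2 in foregut and 7.35 in medial foregut, while Ihh stood at 1.10 FPKM in dorsal pancreas, against 1.329 in foregut and 1.11 in medial foregut. The receptor and target Ptch1 stood at 21.4 FPKM in dorsal pancreas, against 75.4 in foregut and 52.1 in medial foregut. The target Gli1 stood at 13.9 FPKM in dorsal pancreas, against 22.8 in foregut and 15.1 in medial foregut. Ptch1 and Gli1 were thus below both E8.5 libraries without passing the rule. Of 14 members 1 was lower, Shh, and 1 higher, Foxf1a, against 1.18% lower and 1.45% higher among all genes. Medians were -0.54 against foregut and -0.10 against medial foregut. With a pseudocount of 5 FPKM neither call held. The median against medial foregut became 0.04 when each library was rescaled to the same total, while that of all genes became 0.26.

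FGF signalling genes included a ligand gene on each side. Fgf9 stood at 17.6 FPKM in dorsal pancreas, against 0.266 in foregut and 0.0779 in medial foregut. Fgf15 stood at 0.0465 FPKM in dorsal pancreas, against 13.9 in foregut and 6.75 in medial foregut. Fgf10, which mesenchyme sends to keep progenitors dividing, stood at 15.5 FPKM in dorsal pancreas, against 1.78 in foregut and 3.96 in medial foregut, and it did not pass the rule against medial foregut, at a locus under 1000 bp that covers 0.741% of the annotated span. The target Etv4 was higher, at 69.0 FPKM in dorsal pancreas, against 4.41 in foregut and 7.75 in medial foregut. Further targets were above both E8.5 libraries without passing the rule. Etv5 stood at 45.7 FPKM in dorsal pancreas, against 9.59 in foregut and 19.9 in medial foregut. Dusp6 stood at 29.1 FPKM in dorsal pancreas, against 7.36 in foregut and 12.3 in medial foregut. In all, 2 of 20 members were higher and 1 lower, against 1.45% and 1.18% of all genes. Medians were 0.61 against foregut and 0.53 against medial foregut. Leaving out medial foregut gave 5 higher, leaving out foregut gave 2 lower, and with a pseudocount of 5 FPKM the lower call ended.

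The study's title asks about non-canonical Wnt signalling. Of 38 measured members of the non-canonical and planar polarity list 1 was higher and 1 lower, against 1.45% higher and 1.18% lower among all genes. The medians were -0.10 against foregut and -0.061 against medial foregut, below those of all genes. With each library rescaled to the same total the median against medial foregut was 0.09, still below the 0.26 of all genes. Without the foregut library 2 were higher and 4 lower, and the higher call ended with a pseudocount of 5 FPKM. The list was prompted by the title and is not independent evidence of a direction. Its higher member was Daam2, a formin-type effector gene, at 17.3 FPKM in dorsal pancreas, against 1.75 in foregut and 2.07 in medial foregut, and its lower member Sfrp5, a secreted Wnt inhibitor gene of the foregut, at 21.7 FPKM in dorsal pancreas, against 106 in foregut and 141 in medial foregut. The ligand genes were on both sides. Wnt5b stood at 13.8 FPKM in dorsal pancreas, against 5.17 in foregut and 3.44 in medial foregut. Wnt5a stood at 1.20 FPKM in dorsal pancreas, against 7.62 in foregut and 12.8 in medial foregut. Wnt11 stood at 0.652 FPKM in dorsal pancreas, against 5.03 in foregut and 10.47 in medial foregut. Wnt5b was above and Wnt5a and Wnt11 below both E8.5 libraries, none of the 3 passed the rule, and the Wnt11 locus covers 6.65% of the annotated span. Among 28 canonical members Wnt2, a ligand gene active in early heart and foregut mesoderm, was lower, at 0.00611 FPKM in dorsal pancreas, against 15.99 in foregut and 26.7 in medial foregut, as was Sfrp5, and Wnt7b was higher, at 6.32 FPKM in dorsal pancreas, against 0.0458 in foregut and 0.105 in medial foregut, a call that ended with a pseudocount of 5 FPKM. Outside both lists and picked after its values were seen, the receptor gene Fzd5 stood at 30.2 FPKM in dorsal pancreas, against 1.96 in foregut and 2.67 in medial foregut.

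Of 17 Notch genes 2 were higher and 0 lower, against 1.45% and 1.18% of all genes. Medians were 0.42 against foregut and 0.33 against medial foregut. A pseudocount of 5 FPKM left 1 higher, and leaving out either E8.5 library made 1 lower. Dll3 and Dlk1, neither of which acts as a plain activating ligand, were those members. Dll3 stood at 9.77 FPKM in dorsal pancreas, against 0.546 in foregut and 0.460 in medial foregut. Dlk1 stood at 485 FPKM in dorsal pancreas, against 57.4 in foregut and 66.7 in medial foregut. The activating ligand Dll1, which Neurog3 can induce, stood at 17.8 FPKM in dorsal pancreas, against 13.0 in foregut and 4.99 in medial foregut. Notch1 stood at 18.0 FPKM in dorsal pancreas, against 13.1 in foregut and 8.69 in medial foregut. The effector Hes1 stood at 16.6 FPKM in dorsal pancreas, against 15.5 in foregut and 20.0 in medial foregut. For Hes1 the bud lay between the E8.5 libraries. In the BMP and TGF-beta list 4 of 33 were lower and 0 higher, against 1.18% lower and 1.45% higher among all genes. Its medians were -0.065 against foregut and -0.11 against medial foregut. The second median became 0.011 when libraries were rescaled to the same total, while that of all genes became 0.26. Without foregut 6 were lower, and with a pseudocount of 5 FPKM 0. The lower members were the ligand genes Bmp2 (0.408 FPKM in dorsal pancreas, 14.7 in foregut and 28.1 in medial foregut) and Bmp5 (1.71 FPKM in dorsal pancreas, 12.2 in foregut and 23.3 in medial foregut), the activin inhibitor gene Fst (1.46 FPKM in dorsal pancreas, 15.9 in foregut and 12.6 in medial foregut) and the Nodal inhibitor gene Lefty2 (0.00407 FPKM in dorsal pancreas, 5.90 in foregut and 20.3 in medial foregut). Nodal's co-receptor gene Tdgf1 was listed at 0 in dorsal pancreas, against 9.22 FPKM in foregut and 29.1 FPKM in medial foregut. Foxh1, the DNA-binding partner of Nodal's Smads, picked after its values were seen, stood at 0.125 FPKM in dorsal pancreas, against 27.7 in foregut and 56.6 in medial foregut. All 4 of the Nodal and activin genes named here were at or under 2 FPKM in dorsal pancreas. Among axon guidance genes 1 of 38 was higher and 1 lower, against 1.45% higher and 1.18% lower among all genes. Efna3, an ephrin gene, stood at 6.67 FPKM in dorsal pancreas, against 0.632 in foregut and 0.653 in medial foregut. Robo2, a Slit receptor gene, stood at 2.01 FPKM in dorsal pancreas, against 36.1 in foregut and 23.1 in medial foregut. Leaving out foregut gave 3 lower and leaving out medial foregut 2, and the call of Efna3 ended with a pseudocount of 5 FPKM.

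**Figure D4:**
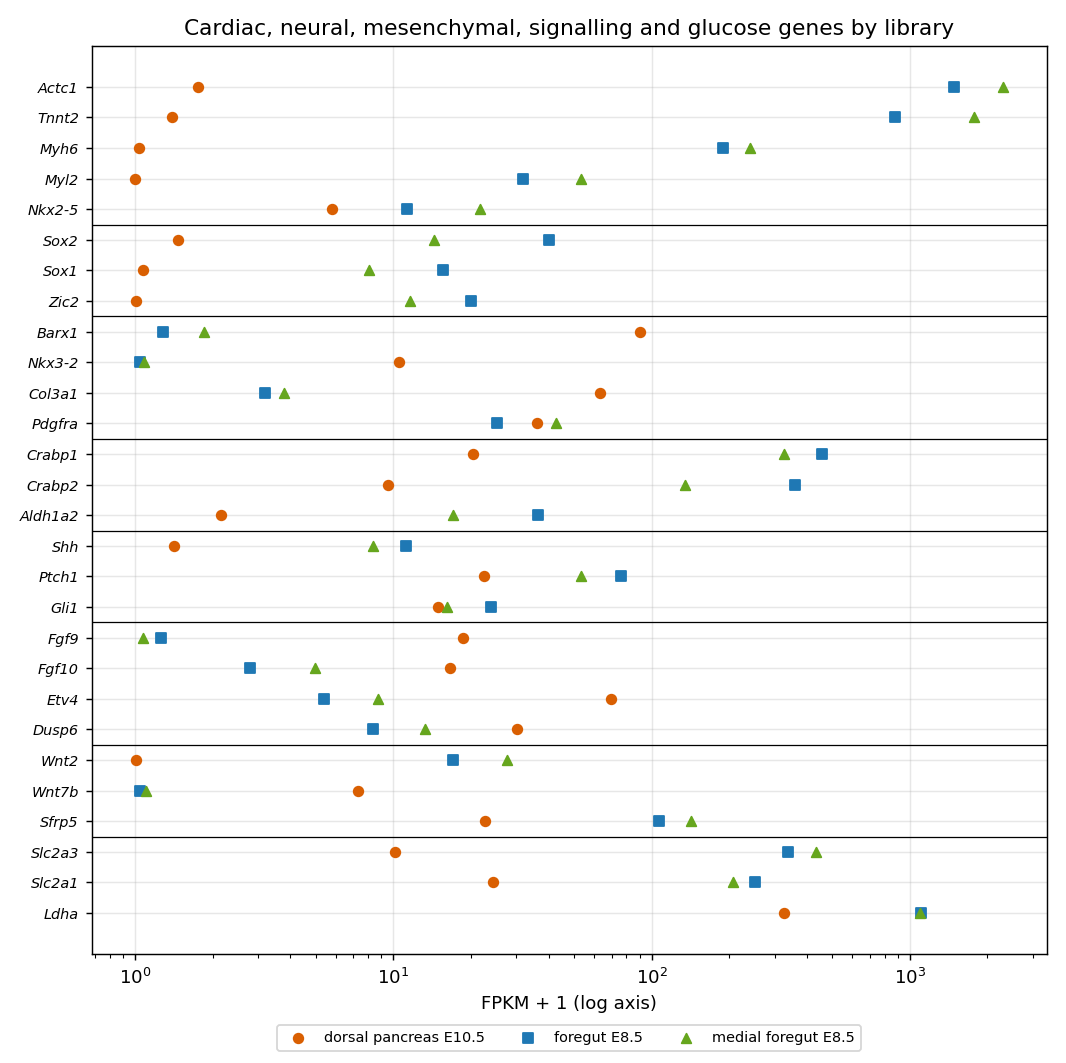
FPKM + 1 on a log axis for 28 genes in dorsal pancreas (circles), foregut (squares) and medial foregut (triangles), with lines between cardiac, neural, mesenchymal, retinoic acid, Hedgehog, FGF, Wnt and glucose genes. The cardiac circles lie between 1 and 6 while the E8.5 symbols reach beyond 1000, and Barx1, Nkx3-2, Col3a1, Fgf9, Fgf10, Etv4, Dusp6 and Wnt7b have the circle on the right.

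Genes of the early embryo past the rule were all lower. Of 16 measured members 3 were lower and 0 higher, with medians of -0.83 against foregut and -0.99 against medial foregut. None kept its call with a pseudocount of 5 FPKM. The lower members were Tdgf1, Fgf15 and Pou5f1, the pluripotency factor, which stood at 0.0195 FPKM in dorsal pancreas, against 5.39 in foregut and 8.55 in medial foregut. Dnmt3b, the DNA methyltransferase of the early embryo, stood at 13.3 FPKM in dorsal pancreas, against 31.4 in foregut and 41.8 in medial foregut. Dnmt3a, its later counterpart, stood at 52.0 FPKM in dorsal pancreas, against 29.7 in foregut and 27.6 in medial foregut. Of the let-7 targets, Lin28b stood at 16.6 FPKM in dorsal pancreas, against 27.3 in foregut and 19.1 in medial foregut. Trim71 stood at 4.32 FPKM in dorsal pancreas, against 8.39 in foregut and 11.5 in medial foregut. Hmga2 stood at 370.3 FPKM in dorsal pancreas, against 169.7 in foregut and 215 in medial foregut. Lin28b and Trim71 were below and Hmga2 above both E8.5 libraries, none past the rule. Imprinted growth genes were near level, with 1 of 20 higher and 1 lower, against 1.45% higher and 1.18% lower among all genes. Their medians were 0.062 against foregut and 0.0087 against medial foregut. Both became negative under median-ratio rescaling, where those of all genes were -0.0028 against foregut and 0.0038 against medial foregut. Dlk1 was the higher member, and Phlda2, a growth-limiting gene, the lower one, at 0.726 FPKM in dorsal pancreas, against 47.2 in foregut and 113 in medial foregut. H19 and Igf2 share an imprinted region. H19 stood at 2068 FPKM in dorsal pancreas, against 1499 in foregut and 2492 in medial foregut. Igf2 stood at 652 FPKM in dorsal pancreas, against 448 in foregut and 759 in medial foregut. In both the bud lay between the E8.5 libraries.

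Genes of glucose uptake and glycolysis were mostly below the E8.5 libraries. Of 28 measured members 3 were lower, 0 higher and 22 below both, with medians of -0.84 against foregut and -0.87 against medial foregut. Without medial foregut 1 was higher. The glucose transporter gene Slc2a3 (chromosome 6, 122677764 to 122752291, reverse strand, mm9) stood at 9.13 FPKM in dorsal pancreas, against 337 in foregut and 433 in medial foregut, and Slc2a1 stood at 23.3 FPKM in dorsal pancreas, against 251 in foregut and 205 in medial foregut. The lactate exporter gene Slc16a3 was the other lower member, at 41.7 FPKM in dorsal pancreas, against 207 in foregut and 219 in medial foregut, at a locus under 1000 bp that covers 3.27% of the annotated span. Ldha, which makes lactate, stood at 324 FPKM in dorsal pancreas, against 1101 in foregut and 1093 in medial foregut. Hk2 stood at 23.6 FPKM in dorsal pancreas, against 64.7 in foregut and 61.5 in medial foregut. Pgk1 stood at 18.5 FPKM in dorsal pancreas, against 47.8 in foregut and 47.1 in medial foregut. The bud was lowest in each. Hif1a, the hypoxia factor gene, stood at 50.4 FPKM in dorsal pancreas, against 60.7 in foregut and 68.4 in medial foregut. Its target Vegfa stood at 41.8 FPKM in dorsal pancreas, against 32.4 in foregut and 33.5 in medial foregut. Neither passed the rule.

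Housekeeping lists gave no call or nearly none, and the cadherin and channel lists, which are not housekeeping genes, gave some. Cell cycle genes had 1 of 31 higher and 0 lower, against 1.45% higher and 1.18% lower among all genes. Their medians were -0.26 against foregut and -0.16 against medial foregut. The higher call ended with a pseudocount of 5 FPKM. The higher member was Cdkn1a, the inhibitor p21, at 30.7 FPKM in dorsal pancreas, against 6.16 in foregut and 5.51 in medial foregut. The related inhibitor gene Cdkn1c stood at 158 FPKM in dorsal pancreas, against 349.8 in foregut and 631 in medial foregut. Ccnd1, a cyclin gene of the early cycle, stood at 73.6 FPKM in dorsal pancreas, against 29.6 in foregut and 22.0 in medial foregut. Cdkn1c was below and Ccnd1 above both E8.5 libraries. Of 53 cytosolic ribosomal protein genes, 52 mitochondrial ones and 21 nucleolar genes none passed the rule, and 44 of the cytosolic ones lay below both libraries, with medians of -0.17 against foregut and -0.25 against medial foregut. Of 62 respiratory chain genes 1 passed, Cox6a2, a subunit of heart and skeletal muscle, which was listed at 0 in dorsal pancreas against 7.49 FPKM in foregut and 11.9 FPKM in medial foregut. The 15 V-ATPase subunit genes held none past the rule, and among 15 cadherin genes Cdh6 was lower, at 3.55 FPKM in dorsal pancreas, against 37.0 in foregut and 29.7 in medial foregut. Among voltage-gated channel genes 3 of 41 were higher and 2 lower, against 1.45% and 1.18% of all genes. The lower calls, like that of Cox6a2, ended with a pseudocount of 5 FPKM. Cacna2d1, a calcium channel subunit gene, stood at 18.8 FPKM in dorsal pancreas, against 1.63 in foregut and 2.25 in medial foregut. Kcnj5, a potassium channel gene of the atrium, stood at 0.234 FPKM in dorsal pancreas, against 11.2 in foregut and 17.4 in medial foregut.

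**Figure D5:**
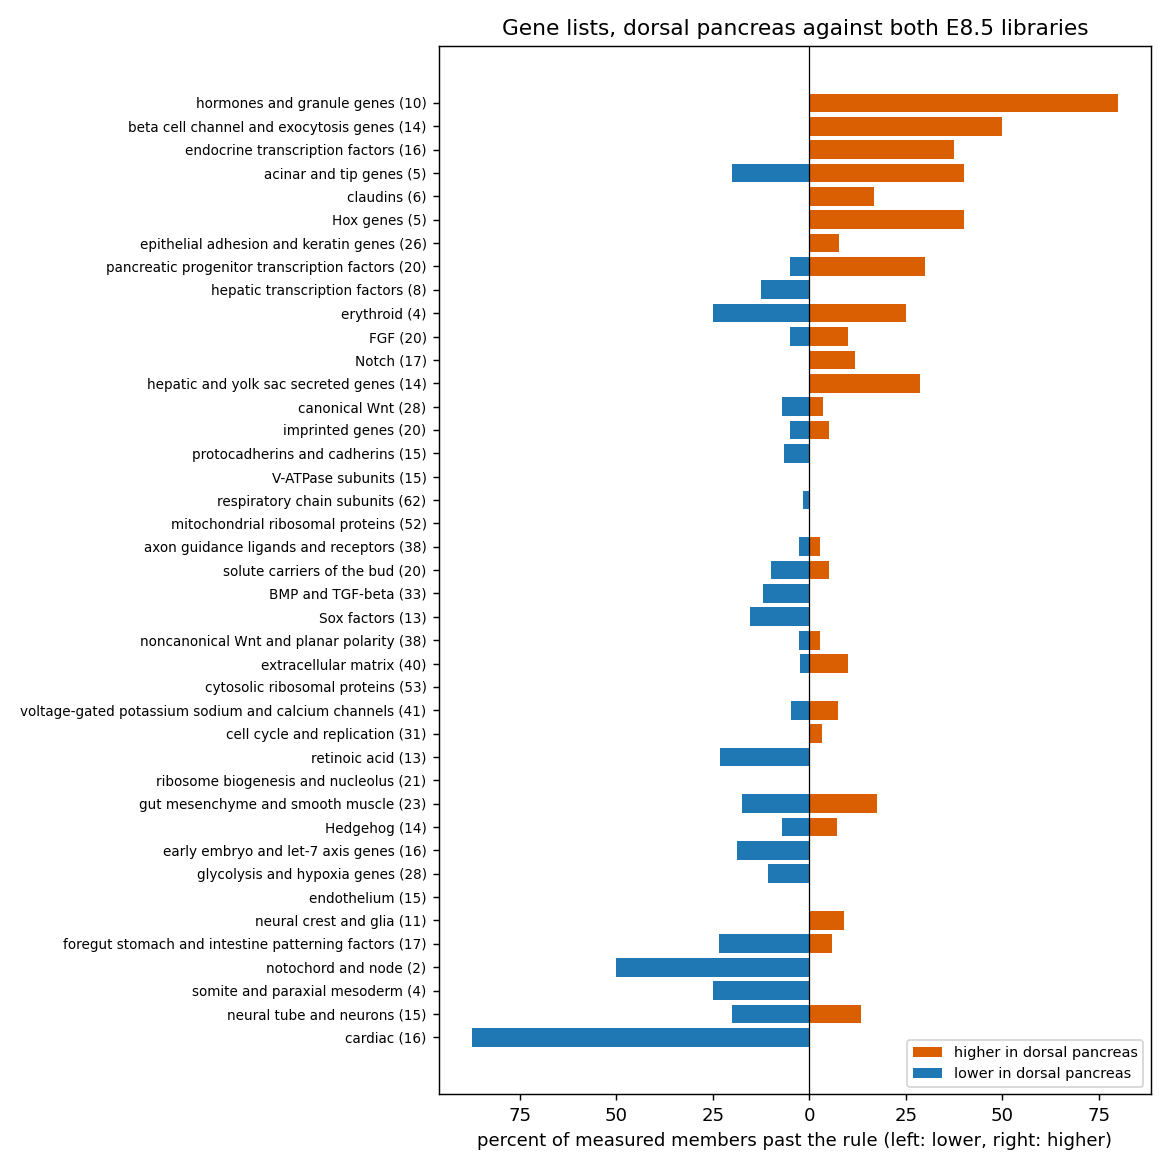
Share of the measured members of each of 41 gene lists (number in brackets) that were higher (right, orange) or lower (left, blue) in dorsal pancreas than in both E8.5 libraries, in percent, ordered by the median difference against foregut with the highest at the top. Hormone and granule genes lead with 8 of 10 higher and cardiac genes end the plot with 14 of 16 lower, against 1.45% higher and 1.18% lower among all genes.

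The same genes are set beside the other E10.5 libraries here as values only, because comparisons with E8.5 share their E8.5 libraries. Gcg stood at 1349 FPKM in dorsal pancreas, 208 in ventral pancreas and 0.00929 in liver, against a listed 0 in foregut and a listed 0 in medial foregut. Pdx1 stood at 40.9 FPKM in dorsal pancreas, 39.2 in ventral pancreas and 0.0313 in liver, against 0.945 in foregut and 0.444 in medial foregut. The ventral bud thus held Pdx1 at nearly the dorsal level and Gcg at a lower one. Barx1 stood at 89.3 FPKM in dorsal pancreas, 0.360 in ventral pancreas and 0.234 in liver, against 0.285 in foregut and 0.855 in medial foregut. Nkx3-2 stood at 9.57 FPKM in dorsal pancreas, 0.0497 in ventral pancreas and 0.0145 in liver, against 0.0436 in foregut and 0.0826 in medial foregut. Fgf9 stood at 17.6 FPKM in dorsal pancreas, 0.477 in ventral pancreas and 0.238 in liver, against 0.266 in foregut and 0.0779 in medial foregut. Each of these was under 1 FPKM in both other E10.5 libraries. Tnc stood at 79.7 FPKM in dorsal pancreas, 1.73 in ventral pancreas and 2.25 in liver, against 5.32 in foregut and 5.42 in medial foregut. Hoxb8 stood at 30.9 FPKM in dorsal pancreas, 0.504 in ventral pancreas and 0.0701 in liver, against 2.16 in foregut and 0.299 in medial foregut. Actc1 stood at 0.752 FPKM in dorsal pancreas, 0.217 in ventral pancreas and 77.9 in liver, against 1487 in foregut and 2297 in medial foregut, so liver kept more than either bud. Slc2a3 stood at 9.13 FPKM in dorsal pancreas, 67.8 in ventral pancreas and 24.5 in liver, against 337 in foregut and 433 in medial foregut, and Shh stood at 0.417 FPKM in dorsal pancreas, 3.14 in ventral pancreas and 0.00678 in liver, against 10.2 in foregut and 7.35 in medial foregut. With 1 library of each, none of these contrasts could be tested.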

How the data were processed

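RNA from 5 mouse embryonic tissues was sequenced, 1 library each. Per the labels' protocols, libraries were made from poly(A) RNA with random hexamers and read from both ends. Random hexamers alone do not settle whether strand was kept, and reads were treated here as carrying no strand. Cufflinks 1.3.0, TopHat 1.33 and mm9 appear in the submitters' processing notes without their roles. The authors deposited 1 table of FPKM per locus, per the file headers; how libraries were scaled and loci chosen is not stated in the sources used here. No count of reads could be recovered, so precision is unknown. Here log2((FPKM + 1)/(FPKM + 1)) was taken for each pair, with the limits of 2 and 5 FPKM given in the report (Python 3.11.15, pandas 2.3.3, numpy 2.4.6), after a check on simulated data. Named genes were the 20 highest and 20 lowest, up to 5 per list and 20 always named; others were chosen after their values were seen, as were the promoters shown. The genes and the 42 lists were chosen with earlier results of these data known. Loci without a gene name were left out, and a few list members are not reported here. Of the named loci 731 join several genes, 187 have no strand and 278 span under 1000 bp; 96 lie on the other strand than the GENCODE M21 gene of that name and 816 cover under 30% of its span, and such loci are marked where named. Promoters are from RefSeq (GRCm38.p6), no coordinate being converted from mm9. The 9 alternatives tried are given in the closing section.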

Additional observations from a re-analysis of the deposited data

Results flagged for a closer look

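Pyy, Isl1 and Reln stood past the rule in dorsal pancreas while liver stood on the other side of both E8.5 libraries; these differences between tissues were not tested, and the comparisons share their E8.5 libraries. Pyy had a smaller difference of 2.80, with 722 FPKM in dorsal pancreas, 167 in ventral pancreas and 1.93 in liver, against 47.6 in foregut and 103 in medial foregut. Isl1 had a smaller difference of 2.48, with 104 FPKM in dorsal pancreas, 13.3 in ventral pancreas and 0.318 in liver, against 5.88 in foregut and 17.8 in medial foregut. Reln, which encodes the secreted guidance protein reelin, had a smaller difference of -3.29, with 1.47 FPKM in dorsal pancreas, 103 in ventral pancreas and 261 in liver, against 29.7 in foregut and 23.1 in medial foregut.

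Among loci without a gene name, which entered no comparison above, 4 were past the same rule as higher in dorsal pancreas and 2 as lower. The lower one with the larger difference stood at 0.576 FPKM in dorsal pancreas, against 99.8 in foregut and 195 in medial foregut.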

How the results depend on the processing

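No paired analysis was possible because each group had 1 library. The reported counts were 179 genes higher and 146 lower (55.1% higher). A pseudocount of 5 FPKM gave 57 higher and 77 lower (42.5% higher), and a minimum of 10 FPKM gave 119 higher. Rescaling each library to a summed FPKM of 1000000 gave 343 higher and 210 lower (62.0% higher). It moved the median of all genes by 0.035 against foregut and 0.16 against medial foregut. Each library had summed to less, so all values rose while the pseudocount of 1 FPKM and the 5 FPKM limit were kept. Counts under this rescaling therefore mix library scale with an easier rule, and the part of each was not tested. Leaving out an E8.5 library gave 212 to 220 higher and 174 to 230 lower. A pseudocount of 0.1 FPKM (238 higher, 173 lower), no minimum level (196 and 162), median-ratio rescaling (165 and 158) and leaving out joined, unstranded and short loci (166 and 140) stayed within 1.5 times of the reported counts. No named gene past the rule reversed in the 7 alternatives run gene by gene. Only the rescalings among them could have changed a sign, so the lack of reversals is no measure of robustness. Of the 207 named genes, many of which had no call to begin with, 39 lost their call with a pseudocount of 5 FPKM. Depth in reads is unknown, so no limit could be set for values near 0.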
